A study of Mus musculus with 8 samples.

Results

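The 10 genes described here mark retinal ganglion cells, and they were taken by gene symbol from a table of 26824 genes counted by RNA sequencing of whole mouse retina. All 10 were in the table and all 10 passed the filter on low counts, which left 20167 genes. They are the regulators Rbpms, Pou4f1, Pou4f2 and Pou4f3, the glutamate transporter gene Slc17a6, the neurofilament genes Nefl, Nefm and Nefh, and Sncg and Thy1. The libraries are 3 labelled WT (WT 1 to WT 3) and 5 labelled as knockouts of Kcnv2, the gene of the photoreceptor potassium channel subunit Kv8.2 (KO 2 to KO 6), each from 2 pooled untreated retinas at 1 month of age. The knockout allele and the strain are not given in the sources used here. The submitters tested 3 WT against 3 KO samples after leaving 2 KO samples out, without naming them, so all 8 libraries were used.

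Ganglion cells are the output neurons of the retina, and their axons form the optic nerve. The POU4 transcription factors direct their differentiation and survival, and Rbpms encodes an RNA-binding protein that in the retina is used as a marker of nearly all ganglion cells. Neurofilaments give calibre to their long axons. In whole retina these markers are diluted among far more numerous photoreceptors, and several are shared with other cells: neurofilaments with horizontal cells, and Thy1 with other neurons and T cells. In such bulk samples fewer cells of a type and less RNA per cell cannot be told apart.

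The libraries held 17759146 to 25188870 counts. Kcnv2 was present in every library, at 519 to 551 CPM (counts scaled to library size) in WT. Among the libraries labelled KO it was at 585 CPM in KO 2, above WT, and at 398 to 447 CPM in KO 3 to KO 6, below WT. Its level therefore does not identify all the knockouts, and libraries are named by their labels. Libraries did not divide along the labels. On the first principal component of log2 CPM, which held 39.5% of the variance, KO 4, KO 5 and KO 6 scored 45.7 to 58.1 and the other 5 libraries -40.2 to -11.9. Mitochondrial genes took 3.03% to 3.70% of counts in KO 4 to KO 6, 6.52% in KO 2, 5.23% in KO 3 and 7.09% to 7.92% in WT. Lens genes took 5.29% of counts in KO 3 and at most 0.184% in any other library. WT 3 held 2132 counts of the Y-linked gene Ddx3y against 1 to 3 in each other library. The fold change of each marker is therefore given over all 8 libraries and within 2 subsets of the KO libraries, KO 4 to KO 6 and KO 2 with KO 3, each set against the 3 WT libraries. These subsets share the WT libraries, so they are not independent of each other.

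No ganglion cell marker passed the test over all 8 libraries. EdgeR's quasi-likelihood test called 0 of the 10 at an adjusted p under 0.05, with a background of 7.58% of all tested genes, and 3 of the 10 (Nefh, Rbpms and Nefm) had an unadjusted p under 0.05, as did 27.3% of all tested genes. The fold change was above 0 for 6 markers and below 0 for 4, with a median log2 fold change of 0.18 against 0.00 over all genes. For all 10 markers the WT and KO values overlapped, while 20.9% of all tested genes had groups that did not overlap. DESeq2 on the same libraries called 1 marker, Nefh, with a background of 15.5%. Limma voom with library quality weights called 7 markers with a background of 40.9%, so calls were frequent across the table in that fit.

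**Figure D1:**
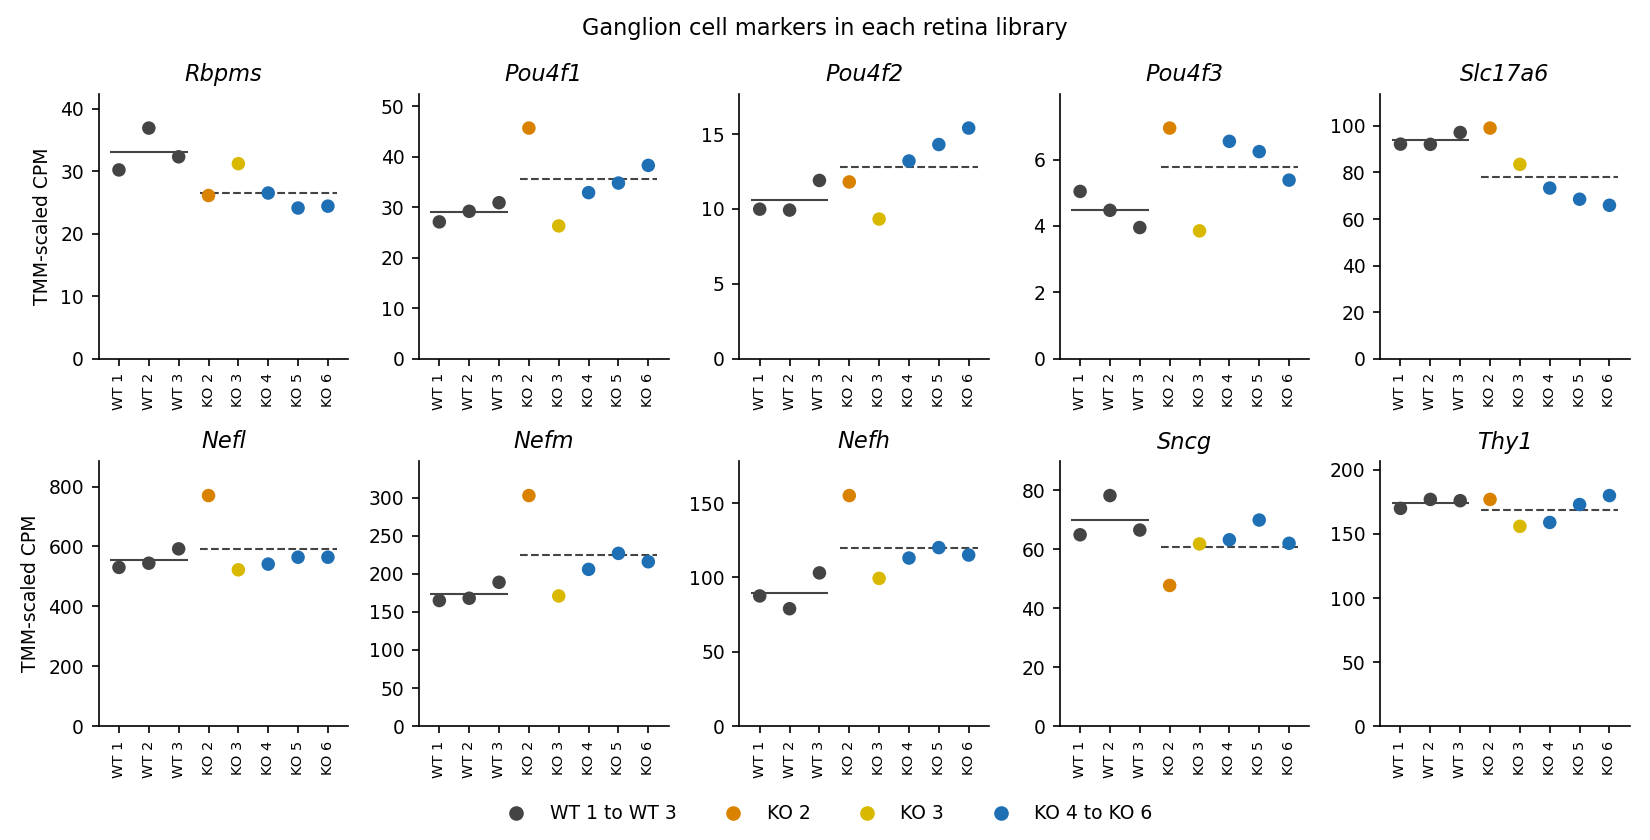
Level of each marker in each library, in CPM with TMM scaling, with 1 point per library, solid lines at the WT mean (n = 3) and dashed lines at the KO mean (n = 5). KO 2 is the highest of the 8 libraries for 6 markers, and the WT and KO points overlap in every panel.

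The number of calls turned on KO 2 and KO 3. In KO 4 to KO 6 against WT, edgeR called 7 of the 10 markers with a background of 42.8% of 19678 genes. Of these, 5 were higher (Pou4f1, Pou4f2, Pou4f3, Nefm and Nefh; background 22.3% called higher) and 2 were lower (Rbpms and Slc17a6; background 20.5% called lower). In KO 2 and KO 3 against WT it called 0 of the 10, with a background of 0.891%, and 2 markers (Nefh and Sncg) had an unadjusted p under 0.05, as did 19.0% of all tested genes. Without KO 3 alone, 4 markers were called (Nefh, Nefm, Pou4f1 and Rbpms; background 20.0%), and without KO 2 alone 1 was called (Slc17a6; background 13.9%). The difference between the subsets was not tested.

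**Figure D2:**
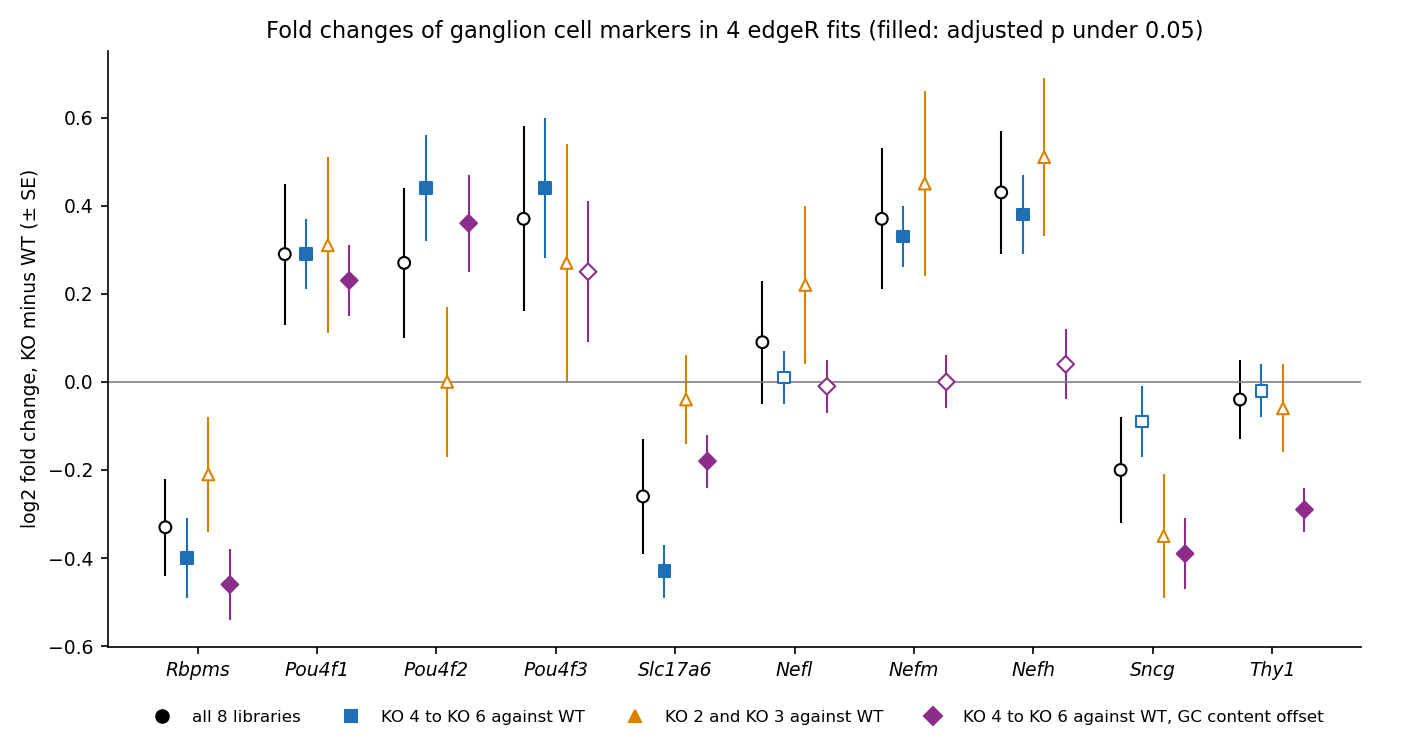
Log2 fold change (KO minus WT) of each marker with its standard error in 4 edgeR fits, with filled symbols where the adjusted p is under 0.05. Open symbols fill the fit of all 8 libraries and that of KO 2 and KO 3, and 7 filled symbols stand in the fit of KO 4 to KO 6, where the values run from -0.43 for Slc17a6 to 0.44 for Pou4f2 and Pou4f3.

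Among the regulators, Rbpms and the POU4 genes had fold changes of opposite sign. Rbpms was at 30.2, 36.9 and 32.3 CPM in WT 1 to WT 3, and at 26.1, 31.2, 26.5, 24.1 and 24.4 CPM in KO 2 to KO 6. Only KO 3 reached into the WT range. Its log2 fold change was -0.33 (SE 0.11, edgeR adjusted p = 0.0971) over all libraries, -0.40 (SE 0.09, edgeR adjusted p = 0.00244) in KO 4 to KO 6 and -0.21 (SE 0.13, edgeR adjusted p = 0.410) in KO 2 and KO 3. The paralogue Rbpms2, also expressed by ganglion cells, had a mean of 21.4 CPM in WT (SD 1.38, n = 3) and also of 21.4 CPM in KO (SD 1.32, n = 5), a log2 fold change of 0.00 (SE 0.10).

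Pou4f1 was at 27.1, 29.2 and 30.9 CPM in WT 1 to WT 3, and at 45.7, 26.3, 32.9, 34.8 and 38.3 CPM in KO 2 to KO 6. KO 3 was the lowest of all 8 libraries and the other 4 KO libraries lay above every WT library. The log2 fold change was 0.29 (SE 0.16, edgeR adjusted p = 0.251) over all libraries and 0.29 (SE 0.08, edgeR adjusted p = 0.0114) in KO 4 to KO 6. In KO 2 and KO 3 it was 0.31 (SE 0.20, edgeR adjusted p = 0.433), a mean of the highest and the lowest library.

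Pou4f2, the earliest acting POU4 gene in ganglion cell differentiation, was at 9.98, 9.92 and 11.9 CPM in WT 1 to WT 3, and at 11.8, 9.32, 13.2, 14.3 and 15.4 CPM in KO 2 to KO 6. KO 4 to KO 6 lay above WT, while KO 2 was inside the WT range and KO 3 below it. The log2 fold change was 0.27 (SE 0.17, edgeR adjusted p = 0.315) over all libraries, 0.44 (SE 0.12, edgeR adjusted p = 0.00860) in KO 4 to KO 6 and -0.00 (SE 0.17, edgeR adjusted p = 0.996) in KO 2 and KO 3. Pou4f3, found in a smaller set of ganglion cells, was the least abundant marker, with 81 to 160 counts per library. It was at 5.04, 4.47 and 3.95 CPM in WT 1 to WT 3, and at 6.95, 3.85, 6.55, 6.24 and 5.38 CPM in KO 2 to KO 6. KO 3 was again the lowest library and the other 4 lay above WT. Its log2 fold change was 0.37 (SE 0.21, edgeR adjusted p = 0.272) over all libraries, 0.44 (SE 0.16, edgeR adjusted p = 0.0422) in KO 4 to KO 6, not called there when WT 3 was left out as well or with the GC offset described below (0.25, edgeR adjusted p = 0.269), and 0.27 (SE 0.27, edgeR adjusted p = 0.621) in KO 2 and KO 3.

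Slc17a6 encodes the vesicular glutamate transporter that loads the synaptic vesicles of ganglion cells. It was at 92.2, 92.1 and 97.2 CPM in WT 1 to WT 3, and at 99.1, 83.5, 73.3, 68.5 and 65.9 CPM in KO 2 to KO 6. KO 2 was the highest of the 8 libraries, while KO 3 to KO 6 all lay below WT. The log2 fold change was -0.26 (SE 0.13, edgeR adjusted p = 0.206) over all libraries, -0.43 (SE 0.06, edgeR adjusted p = 0.000179) in KO 4 to KO 6 and -0.04 (SE 0.10, edgeR adjusted p = 0.865) in KO 2 and KO 3. The GC offset described below moved it to -0.10 (edgeR adjusted p = 0.524) over all libraries and -0.18 (edgeR adjusted p = 0.0287) in KO 4 to KO 6. Of the other vesicular glutamate transporters, Slc17a7 of photoreceptors and bipolar cells had a WT mean of 1431 CPM (SD 39.8, n = 3) and a KO mean of 1792 CPM (SD 270, n = 5), with a log2 fold change of 0.32 (edgeR adjusted p = 0.142). Slc17a8, found in some amacrine cells, was at 36.2 to 40.3 CPM in WT, 40.6 and 37.1 CPM in KO 2 and KO 3, and 23.6 to 25.2 CPM in KO 4 to KO 6, with a log2 fold change of -0.31 (edgeR adjusted p = 0.297).

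The sequences before the start sites of Pou4f1, Pou4f2 and Slc17a6 are shown because these 3 genes kept their calls in KO 4 to KO 6 in opposite directions after the adjustment for GC content described below. They are from RefSeq promoters of GRCm38.p6, which held 4 of the 10 markers by symbol, and each is the 250 bases before an annotated start, on the strand of the gene. Capitals mark matches, on either strand, to the GC box GGGCGG, the TATA word TATAAA, the CCAAT word or ATAATTAAT, a word from the site that POU4 factors bind.
Pou4f1, chr14:104468000-104468249, minus strand: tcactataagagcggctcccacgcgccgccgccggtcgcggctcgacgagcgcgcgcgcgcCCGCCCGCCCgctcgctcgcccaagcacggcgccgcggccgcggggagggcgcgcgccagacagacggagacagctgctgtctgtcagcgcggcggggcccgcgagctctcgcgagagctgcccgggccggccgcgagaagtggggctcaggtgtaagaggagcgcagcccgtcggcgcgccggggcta
Pou4f2, chr8:78436648-78436897, minus strand: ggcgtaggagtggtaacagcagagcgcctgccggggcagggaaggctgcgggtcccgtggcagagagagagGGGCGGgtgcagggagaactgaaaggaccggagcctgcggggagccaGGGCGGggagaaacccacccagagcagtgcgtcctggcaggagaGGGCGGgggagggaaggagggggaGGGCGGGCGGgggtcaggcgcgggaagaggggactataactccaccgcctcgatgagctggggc
Slc17a6, first start, chr7:51621580-51621829, plus strand: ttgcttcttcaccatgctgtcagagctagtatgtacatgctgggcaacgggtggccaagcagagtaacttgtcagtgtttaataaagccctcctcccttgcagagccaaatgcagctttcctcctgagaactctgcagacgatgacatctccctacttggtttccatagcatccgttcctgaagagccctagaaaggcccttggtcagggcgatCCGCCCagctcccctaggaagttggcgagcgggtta
Slc17a6, second start, chr7:51624387-51624636, plus strand: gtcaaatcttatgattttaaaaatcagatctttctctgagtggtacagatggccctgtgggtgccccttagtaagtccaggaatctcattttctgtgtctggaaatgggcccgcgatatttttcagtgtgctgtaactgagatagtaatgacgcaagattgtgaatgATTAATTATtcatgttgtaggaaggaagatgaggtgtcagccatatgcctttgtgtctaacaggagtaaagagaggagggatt
The Pou4f1 window held 2 overlapping GC boxes and was 78.0% G or C, at or above 98.1% of the 32851 promoters searched. The Pou4f2 window held 5 GC boxes, of which the last 2 overlap, and was 70.8% G or C. The windows of Slc17a6 were 53.2% and 41.2% G or C, with 1 GC box before the first start and 0 before the second. A GC box was in 32.7% of all windows of the same length. The word ATAATTAAT was in 0.259% of all windows and in 1 of the 4 shown, before the second Slc17a6 start, read there on the opposite strand. The TATA word, in 12.4% of all windows, and the CCAAT word, in 33.8%, were in 0 of the 4. These matches describe letters only.

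The 3 neurofilament genes encode the light, medium and heavy chains that assemble together. Nefl was the most abundant marker, at 530, 544 and 592 CPM in WT 1 to WT 3, and at 770, 522, 541, 564 and 564 CPM in KO 2 to KO 6. KO 2 stood alone above the rest, and the other 4 KO libraries lay within the WT range or, for KO 3, just below it. The log2 fold change of Nefl was 0.09 (SE 0.14, edgeR adjusted p = 0.708) over all libraries, and without KO 2 it was -0.02. In KO 4 to KO 6 it was 0.01 (SE 0.06, edgeR adjusted p = 0.887), and in KO 2 and KO 3 it was 0.22 (SE 0.18, edgeR adjusted p = 0.534).

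Nefm was at 165, 168 and 189 CPM in WT 1 to WT 3, and at 303, 171, 206, 227 and 216 CPM in KO 2 to KO 6. All KO libraries except KO 3 lay above WT. Its log2 fold change was 0.37 (SE 0.16, edgeR adjusted p = 0.171) over all libraries, 0.33 (SE 0.07, edgeR adjusted p = 0.00147) in KO 4 to KO 6 and 0.45 (SE 0.21, edgeR adjusted p = 0.285) in KO 2 and KO 3. Without KO 2 the value over the remaining 7 libraries was 0.24. The offset for GC content described below gave 0.16 over all libraries and -0.00 (edgeR adjusted p = 0.998) in KO 4 to KO 6, where the call was lost.

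Nefh was at 87.5, 78.9 and 103 CPM in WT 1 to WT 3, and at 155, 99.3, 113, 120 and 115 CPM in KO 2 to KO 6. Of the KO libraries only KO 3 lay below the highest WT library. Its log2 fold change was 0.43 (SE 0.14, edgeR adjusted p = 0.0902) over all libraries, the largest of the 10 markers in that fit, and 0.21 (SE 0.17) with the offset for GC content described below. It was 0.38 (SE 0.09, edgeR adjusted p = 0.00313) in KO 4 to KO 6 and 0.51 (SE 0.18, edgeR adjusted p = 0.198) in KO 2 and KO 3. The call in KO 4 to KO 6 was lost with the GC offset (0.04, edgeR adjusted p = 0.738). Of the other neuronal intermediate filaments, Ina had a WT mean of 103 CPM (SD 2.71, n = 3) and a KO mean of 130 CPM (SD 17.6, n = 5), with a log2 fold change of 0.33 (edgeR adjusted p = 0.107) over all libraries and 0.42 (edgeR adjusted p = 9.53e-05) in KO 4 to KO 6, where the GC offset gave 0.16 (edgeR adjusted p = 0.0360). Prph was at 3.23 to 3.64 CPM in WT and 3.74 to 5.79 CPM in KO, without overlap, and its log2 fold change of 0.50 was not called (edgeR adjusted p = 0.101), while in KO 4 to KO 6 it was 0.53 (edgeR adjusted p = 0.0431), a call lost with the GC offset (0.15, edgeR adjusted p = 0.575).

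Ratios between neurofilament genes within a library do not depend on the scaling of libraries, and they were used to compare the chains with each other. The Nefm to Nefl ratio of counts was 0.312, 0.308 and 0.319 in WT 1 to WT 3, and 0.394, 0.328, 0.381, 0.403 and 0.383 in KO 2 to KO 6. The Nefh to Nefl ratio was 0.165, 0.145 and 0.173 in WT 1 to WT 3, and 0.202, 0.190, 0.208, 0.213 and 0.204 in KO 2 to KO 6. Every KO library lay above every WT library in both ratios. No background share was computed for ratios of other gene pairs, and 20.9% of single genes had groups that did not overlap. The difference on the log2 scale was 0.27 for Nefm to Nefl and 0.34 for Nefh to Nefl, each with a two-sided exact permutation p of 0.0357, the smallest that the 56 arrangements of 3 and 5 libraries allow, and an adjusted p of 0.0536 over the 3 ratios, which misses 0.05. In KO 4 to KO 6 the differences were 0.31 and 0.37, and in KO 2 and KO 3 they were 0.20 and 0.29. The Nefh to Nefm ratio differed by 0.07 (exact permutation p = 0.393) and its groups overlapped. The ratios were chosen after the values had been seen, and they carry no adjustment for GC content, which differs between the light chain gene and the other 2. With the GC offset described below, the fold changes of Nefm, Nefh and Nefl were 0.16, 0.21 and 0.08 on the log2 scale over all libraries, and -0.00, 0.04 and -0.01 in KO 4 to KO 6. For KO 2 and KO 3 they were 0.37, 0.42 and 0.20.

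**Figure D3:**
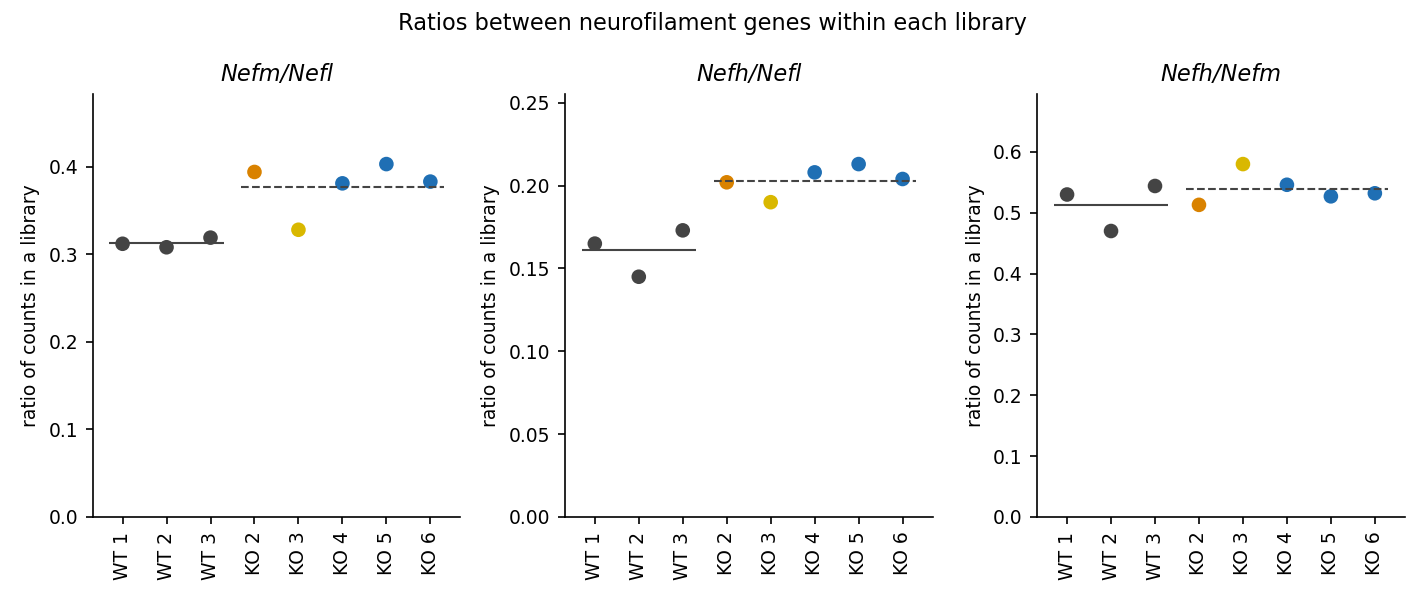
Ratio of the counts of 2 neurofilament genes in each library, with solid lines at the WT geometric mean and dashed lines at the KO geometric mean. The ratios to Nefl lie above all WT libraries in all 5 KO libraries (0.328 to 0.403 for Nefm), with KO 3 nearest to WT, and the Nefh to Nefm ratios overlap.

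Sncg, a synuclein abundant in ganglion cell bodies and axons, was at 64.9, 78.2 and 66.5 CPM in WT 1 to WT 3, and at 47.7, 61.8, 63.2, 69.9 and 62.0 CPM in KO 2 to KO 6. All KO libraries except KO 5 lay below WT, and KO 2 was the lowest, unlike its place for the neurofilaments. The log2 fold change was -0.20 (SE 0.12, edgeR adjusted p = 0.305) over all libraries, -0.09 (SE 0.08, edgeR adjusted p = 0.388) in KO 4 to KO 6 and -0.35 (SE 0.14, edgeR adjusted p = 0.219) in KO 2 and KO 3. Without WT 2 alone it was -0.10, and without KO 2 alone -0.12. The GC offset gave calls over all libraries (-0.41, edgeR adjusted p = 0.0334) and in KO 4 to KO 6 (-0.39, edgeR adjusted p = 0.00303). Sncb, another synuclein gene, had a WT mean of 306 CPM (SD 23.0, n = 3) and a KO mean of 278 CPM (SD 40.8, n = 5), with a log2 fold change of -0.14 (edgeR adjusted p = 0.509).

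Thy1 encodes a surface glycoprotein used to label and purify ganglion cells. Relative to its level it had the narrowest range of the 10 markers, at 170, 177 and 176 CPM in WT 1 to WT 3, and at 177, 156, 159, 173 and 180 CPM in KO 2 to KO 6. The groups overlapped, and KO 3 and KO 4 were below the WT range. Its log2 fold change was -0.04 (SE 0.09, edgeR adjusted p = 0.783) over all libraries, -0.02 in KO 4 to KO 6 and -0.06 in KO 2 and KO 3. With the GC offset it was -0.23 (edgeR adjusted p = 0.140) over all libraries and was called in KO 4 to KO 6, at -0.29 (edgeR adjusted p = 0.00106). T cells share Thy1. Of the 4 T cell genes listed, only Cd8a was in the table, at 5.05e-05% to 0.000102% of the counts of a library.

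Levels of different genes were compared as CPM per kilobase of the longest annotated transcript. In WT, Nefl stood first at 164 ± 9.61 (SD, n = 3), followed by Thy1 at 100 ± 2.35, Sncg at 82.0 ± 8.54 and Nefm at 47.3 ± 3.50. Slc17a6 at 22.7 ± 0.705 and Nefh at 22.4 ± 3.01 had overlapping ranges. Rbpms was at 13.0 ± 1.35, Pou4f1 at 6.54 ± 0.425, Pou4f2 at 3.30 ± 0.344 and Pou4f3 at 1.90 ± 0.231. The ranges of all other neighbours in this order were separate in WT. In the KO libraries the order of means was the same except that Nefh, at 30.2 ± 5.26, stood above Slc17a6, at 18.9 ± 3.28 (SD, n = 5). Over all 8 libraries, the ranges also overlapped between Thy1 and Sncg, Sncg and Nefm, Rbpms and Pou4f1 and between Pou4f2 and Pou4f3.

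Fold changes across the whole table moved with GC content, and the markers differ in it. Among all tested genes with a transcript in GENCODE M21, the rank correlation (Spearman) of the fold change with GC content was 0.46 over all libraries (18028 genes), 0.53 in KO 4 to KO 6 (17672 genes) and 0.17 in KO 2 and KO 3 (18043 genes), across genes, which are not independent replicates. In KO 4 to KO 6 against WT the median log2 fold change was -0.27 for the 3588 genes of 40% to 45% GC and 0.33 for the 2945 genes of 55% to 60% GC. Slc17a6 has 42.9% GC, Nefl 48.8%, Pou4f1 49.8%, Rbpms 49.9%, Pou4f2 50.5%, Pou4f3 53.7%, Thy1 55.8%, Sncg 56.6%, Nefm 57.8% and Nefh 58.4%.

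With an offset for GC content in each library, the neurofilament differences of KO 4 to KO 6 were near 0. The log2 fold change was -0.00 (SE 0.06) for Nefm, 0.04 (SE 0.08) for Nefh and -0.01 (SE 0.06) for Nefl. In KO 2 and KO 3 the offset left Nefm at 0.37 (SE 0.22) and Nefh at 0.42 (SE 0.19), with 0 markers called and a background of 0.970%. In KO 4 to KO 6 with the offset, edgeR called 6 of the 10 markers with a background of 32.2%. Pou4f1 (0.23, edgeR adjusted p = 0.0427) and Pou4f2 (0.36, edgeR adjusted p = 0.0284) stayed higher, while Pou4f3 at 0.25 was not called. Rbpms (-0.46, edgeR adjusted p = 0.00151) and Slc17a6 (-0.18, edgeR adjusted p = 0.0287) stayed lower. Sncg (-0.39, edgeR adjusted p = 0.00303) and Thy1 (-0.29, edgeR adjusted p = 0.00106) were called lower in KO 4 to KO 6 with the offset and not without it. Over all 8 libraries with the offset, 1 marker was called (background 6.33%): Sncg, at -0.41 (SE 0.09, edgeR adjusted p = 0.0334). In that fit Rbpms was at -0.37, Thy1 at -0.23, Slc17a6 at -0.10, Nefl at 0.08 and Nefm at 0.16. Pou4f1 was at 0.25, Pou4f3 at 0.24 and Pou4f2 at 0.21.

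**Figure D4:**
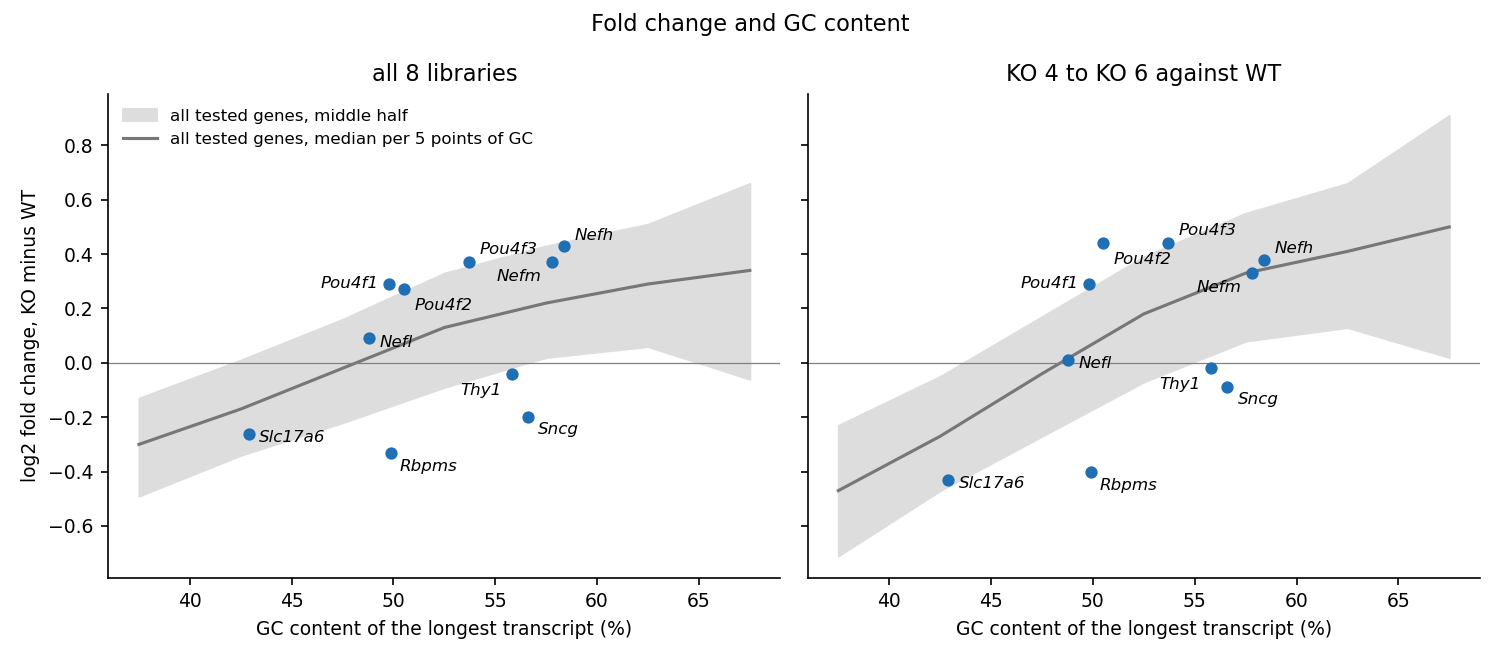
Log2 fold change (KO minus WT) of the 10 markers (points) against the GC content of their longest transcript, over all 8 libraries and for KO 4 to KO 6 against WT. The grey line and band are the median and the middle 50% of all tested genes in steps of 5 percentage points of GC, and Nefl, Nefm and Nefh lie close to the line in the panel of KO 4 to KO 6, with Rbpms, Sncg and Thy1 below the band in both panels.

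On GRCm38 the markers lie, by their annotated gene spans, at chromosome 8, 33782643 to 33929863 (Rbpms, minus strand), chromosome 14, 104461676 to 104467999 (Pou4f1, minus), chromosome 8, 78433010 to 78436645 (Pou4f2, minus), chromosome 7, 51622006 to 51671119 (Slc17a6, plus), chromosome 11, 4938754 to 4948064 (Nefh, minus), chromosome 14, 34370274 to 34374789 (Sncg, minus) and chromosome 9, 44043384 to 44048579 (Thy1, plus). The count of reads for some markers is uncertain because of shared sequence. In the annotation Nefl (chromosome 14, 68083863 to 68089095, plus strand, GRCm38) lies inside the span of Nefm (68082590 to 68124846, minus strand), and 32.2% of the 31-base words of Nefl and 19.1% of those of Nefm occur in the other gene or, for Nefm, in further genes. Strand-specific counting is not stated, so reads from the shared stretch cannot be assigned with certainty. Pou4f1 and Pou4f2 share 61 such words, and 1.81% and 2.08% of their words occur in other genes. The share was 1.26% or less for Rbpms, Pou4f3, Slc17a6, Nefh, Sncg and Thy1.

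Of 16 further ganglion cell genes, 15 were tested, 1 passed as higher, 1 passed as lower and 13 did not pass, over all 8 libraries, where 4.74% of all tested genes were called higher and 2.84% lower (7.58% in all). The list's median was 0.05 on the log2 scale. Nell2, which encodes a secreted glycoprotein, rose, from a WT mean of 36.5 CPM (SD 0.935, n = 3) to a KO mean of 45.4 CPM (SD 3.00, n = 5), with a log2 fold change of 0.32 (edgeR adjusted p = 0.0462). Stmn2, which encodes a microtubule regulator of growing axons, fell, from a WT mean of 85.1 CPM (SD 5.01, n = 3) to a KO mean of 66.3 CPM (SD 6.60, n = 5), with a log2 fold change of -0.36 (edgeR adjusted p = 0.0449). With the GC offset neither was called (edgeR adjusted p = 0.104 and 0.233), nor in KO 2 and KO 3 (edgeR adjusted p = 0.244 and 0.226). The subset KO 4 to KO 6 had 3 of the 15 called higher and 4 lower, beside the background of 42.8%.

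Of 12 genes that mark ganglion cell subtypes, 1 passed as higher, 1 passed as lower and 10 did not pass, beside 4.74% and 2.84% of all tested genes. The list's median was 0.07 on the log2 scale. Both called genes are known from alpha ganglion cells, and they moved in opposite directions. Kcng4, a silent potassium channel subunit, rose, from a WT mean of 21.9 CPM (SD 0.900, n = 3) to a KO mean of 32.3 CPM (SD 4.80, n = 5), with a log2 fold change of 0.56 (edgeR adjusted p = 0.0344). Spp1, which encodes osteopontin, fell, from a WT mean of 18.6 CPM (SD 1.78, n = 3) to a KO mean of 13.0 CPM (SD 0.909, n = 5), with a log2 fold change of -0.52 (edgeR adjusted p = 0.0262). With the GC offset neither passed, at 0.33 for Kcng4 (edgeR adjusted p = 0.0841) and -0.36 for Spp1 (edgeR adjusted p = 0.0605). Neither passed in KO 2 and KO 3, at 0.38 for Kcng4 (edgeR adjusted p = 0.183) and -0.44 for Spp1 (edgeR adjusted p = 0.155).

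Of 12 genes of the axonal cytoskeleton, 3 were higher, 1 (Stmn2) was lower and 8 did not pass, beside 4.74% and 2.84% of all tested genes. The list's median was 0.32 on the log2 scale, and 0.13 with the GC offset, where 2 were called higher and 0 lower. In KO 4 to KO 6 against WT, 9 were higher and 2 lower, beside 22.3% and 20.5% of all genes tested there. With the GC offset in that subset, 6 were higher and 1 lower, beside a background of 32.2% in all. Tubb2b, a beta-tubulin of growing neurons, was at 10.1 to 11.9 CPM in WT and 18.1 to 23.5 CPM in KO, a rise with a log2 fold change of 0.95 (edgeR adjusted p = 0.00354). It was the one gene of this list called in KO 2 and KO 3 as well (0.84, edgeR adjusted p = 0.0379), with a background of 0.891%. Tubb2b was also called with the GC offset (0.88, edgeR adjusted p = 0.00224). The microtubule-associated proteins Map1a (0.62, edgeR adjusted p = 0.0315) and Map1b (0.61, edgeR adjusted p = 0.0475) also rose. With the GC offset Map1b was called (edgeR adjusted p = 0.0432) and Map1a was not (edgeR adjusted p = 0.0635).

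Of 12 genes of the axon injury response, 10 were tested, 3 passed as higher, 0 passed as lower and 7 did not pass, beside 4.74% of all tested genes called higher. The list's median was 0.30 on the log2 scale, and 0.24 with the GC offset, where 2 were called. Atf3, a stress-induced transcription factor, was at 2.66 to 4.47 CPM in WT and 6.23 to 12.6 CPM in KO, a log2 fold change of 1.47 (SE 0.26, edgeR adjusted p = 0.0140). Jun, which acts with it, rose, from a WT mean of 32.9 CPM (SD 2.13, n = 3) to a KO mean of 58.2 CPM (SD 10.6, n = 5), with a log2 fold change of 0.82 (SE 0.14, edgeR adjusted p = 0.0138). Csrnp1 rose by 0.90 on the log2 scale (edgeR adjusted p = 0.0491), and with the GC offset it was not called (0.67, edgeR adjusted p = 0.0783). These genes are induced in many cell types, and Gap43, a growth cone protein on the same list, had a log2 fold change of 0.09 (edgeR adjusted p = 0.616). In KO 2 and KO 3 against WT 0 of the 9 list genes tested there were called, with a background of only 0.891%. Atf3 was at 1.05 (edgeR adjusted p = 0.104) and Jun at 0.52 (edgeR adjusted p = 0.0593). In KO 4 to KO 6 against WT 4 of the 9 tested were higher and 0 lower, beside 22.3% of all genes called higher.

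Markers of other cells that share these genes or could dilute them gave the following values, and their part in the results was not tested. The counts are over all 8 libraries, to be read beside 4.74% of all tested genes called higher and 2.84% called lower. Of 10 amacrine genes, 1 (Slc18a3, 0.75) was higher, not called with the GC offset (0.48, edgeR adjusted p = 0.0903) or in KO 2 and KO 3 (edgeR adjusted p = 0.223). The summed level of all 10 was 0.121% to 0.123% of counts in WT and 0.115% to 0.133% in KO. Of 6 horizontal cell symbols, 5 were in the table and 1 (Calb1, -0.49) was lower, not called with the GC offset (edgeR adjusted p = 0.754). Their sum was 0.0209% to 0.0212% in WT and 0.0172% to 0.0201% in KO. The median log2 fold change of the 5 was 0.07, while Calb1 alone went from a WT mean of 89.6 CPM to a KO mean of 63.8 CPM. Of 6 Muller glia genes, 2 were higher (Sox9, 0.62, and Kcnj10, 0.54), with sums of 0.314% to 0.323% in WT, 0.428% in KO 2 and 0.301% to 0.355% in KO 3 to KO 6. Of 10 genes of astrocytes and optic nerve, 6 were tested, and Gfap (1.67), an intermediate filament gene of astrocytes and reactive Muller glia, was higher. The sum of the 9 in the table was 0.00801% to 0.00854% in WT and 0.0100% to 0.0142% in KO, higher in every KO library. Gfap, which is part of that sum, alone went from a WT mean of 20.1 CPM to a KO mean of 63.8 CPM. The sum therefore does not show a rise of the list as a whole. Of 6 rod genes 0 were called, and their sum was at most 4.03% in WT and ran from 3.08% in KO 3 to 4.39% in KO 5. Of 18 lens genes 0 were called over all libraries, with sums of 0.00498% to 0.184% in WT, 5.29% in KO 3 and 0.00274% to 0.0244% in the other KO libraries. Of the 15 lens genes tested in KO 4 to KO 6 against WT, 15 were called lower, beside 20.5% of all genes tested there.

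The mean of the 10 markers' log2 CPM, each centred on its own mean, was -0.10, -0.05 and -0.01 in WT 1 to WT 3, and 0.22, -0.16, 0.01, 0.06 and 0.03 in KO 2 to KO 6. KO 2 and KO 3 were thus the highest and the lowest library, both labelled KO. Among 11248 other genes that passed a minimum level of log2 CPM 3, the 5 whose levels followed this mean most closely over the 8 libraries were Nans (Pearson r = 0.990), Pccb (0.989), Lsm12 (0.978), Trarg1 (0.976) and Slc45a4 (0.976). These r values are the highest of many and come from 8 libraries that share their depth and scaling, so they are a description. Trarg1 for example was at 33.9, 37.5 and 41.6 CPM in WT 1 to WT 3, and at 60.2, 33.8, 39.6, 47.1 and 45.6 CPM in KO 2 to KO 6.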

How the data were processed

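RNA was sequenced from whole retinas, with 3 WT and 5 KO libraries. The authors deposited whole-number counts per gene. The submitters' processing notes name Trim Galore, Salmon 1.10.2, DESeq2 and GRCm38, with no role, so the counts may be rounded Salmon estimates; strand setting and annotation are not given in the sources used here. Counts were filtered with filterByExpr, scaled by TMM and tested with edgeR 4.0.16 (quasi-likelihood) under R 4.3.3, with Benjamini-Hochberg adjustment over all tested genes and calls at an adjusted p under 0.05. Standard errors come from the F statistic. CPM is TMM-scaled, and log2 CPM has a prior count of 2. GC content and length are those of the longest transcript, and positions those of the gene, in GENCODE M21 (GRCm38), which held 22121 of the 26824 genes by identifier. The GC offset is a natural spline with 6 degrees of freedom per library. Alternatives included DESeq2 1.42.0 and limma 3.58.1. Ratios were tested in scipy 1.17.1.

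The markers, lists and subsets of libraries were chosen with earlier results of these data known. The text names all markers, the called genes of each list, the other members of 4 gene families, and the 5 genes most like the markers' mean. Results of some genes under this rule are not reported here. At the depth of 17759146 to 25188870 counts, a floor of 3 counts equals 0.119 to 0.169 CPM, which covers counting error only. The labels do not say which retinas came from separate litters, so the libraries may not be independent. The p-values weigh a difference against the spread between these libraries only. No 2 libraries of a group agreed within sampling noise (chi-square per degree of freedom 5.38 or more). On simulated counts with 200 genes changed 2-fold among 19694, the edgeR steps called 115 (57.5%), with 6 others. The largest marker value over all libraries was 0.43 on the log2 scale, less than 2-fold. This share therefore does not apply to changes of the markers' size. WT and KO libraries share the numbers 2 and 3. The deviations of same-numbered libraries correlated at 0.00 and -0.24, so they were not taken as pairs.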

Additional observations from a re-analysis of the deposited data

Results flagged for a closer look

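Among the 5 KO libraries, 13 values were examined for a library far from the others, and 2 had a gap above 0.71 of the group's range. About 0.65 such values arise by chance. The log2 CPM of Nefl in KO 2 was 9.59, and its gap to the next KO library was 0.801 of the range. The Nefm to Nefl ratio in KO 3 was -1.61 on the log2 scale, with a gap of 0.729 of the range, on the side of the WT libraries. KO 3 is also the library with 5.29% lens counts, and whether that bears on the ratio was not tested.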

How the results depend on the processing

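Fold changes of the 10 markers were recomputed under 34 alternatives, of which 3 were added after seeing the data. Of the 340 values, 290 kept their direction and side of the threshold, 38 passed the threshold in the same direction and 12 changed sign, over 5 markers. The other scalings and filters run, edgeR's robust fit and leaving out lens and mitochondrial genes changed no marker's call. DESeq2 called 1 marker (Nefh, 0.43) and 3127 genes. Limma voom called 7 markers and 8248 genes: Rbpms -0.35, Pou4f1 0.27, Pou4f2 0.38, Pou4f3 0.41, Slc17a6 -0.39, Nefm 0.32 and Nefh 0.37. The GC offset called 1 marker (Sncg, -0.41). KO 4 to KO 6 with the GC offset called 6 markers and 5691 genes: Rbpms -0.46, Pou4f1 0.23, Pou4f2 0.36, Slc17a6 -0.18, Sncg -0.39 and Thy1 -0.29, while Nefl was -0.01 and Nefm -0.00. Leaving out WT 3 as well, without the offset, gave 6 markers and 7668 genes: Rbpms -0.42, Pou4f1 0.34, Pou4f2 0.54, Slc17a6 -0.40, Nefm 0.39 and Nefh 0.49. KO 2 and KO 3 against WT gave 180 genes, and 175 with the GC offset, with Pou4f2 at -0.00 and -0.04 and Slc17a6 at 0.01 with the offset.

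Fits without 1 library or 1 pair of KO libraries called 0 to 7 markers and 118 to 8416 genes. Their log2 fold changes ran from -0.42 to -0.23 for Rbpms, 0.11 to 0.45 for Pou4f1, 0.11 to 0.44 for Pou4f2, 0.20 to 0.55 for Pou4f3, -0.43 to -0.14 for Slc17a6, -0.03 to 0.19 for Nefl, 0.19 to 0.52 for Nefm, 0.29 to 0.54 for Nefh, -0.29 to -0.09 for Sncg and -0.10 to 0.02 for Thy1. The cause of these changes was not tested. The ratios to Nefl kept their sign without each library. That outcome was fixed in advance, because every KO library lay above every WT library in both ratios.

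The replicate block on WT 2, WT 3, KO 2 and KO 3 called 52 genes, against 14 in these 4 libraries with no block, and 0 markers in either. Pou4f2 was -0.05 with the block and -0.04 without it. Depth limits Pou4f3 most, at 81 to 160 counts per library.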
